A study of Mus musculus with 9 samples.

Results

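Lipoprotein lipase and the uptake of fatty acids were followed through 8 genes, *Lpl*, *Lmf1*, *Gpihbp1*, *Angptl4*, *Cd36*, *Fabp4*, *Slc27a1* and *Vldlr*, chosen by exact match of their symbols among the 24356 gene symbols measured in brown adipose tissue. All 8 were found, and all 8 were above 0 in every library and so entered the tests, which covered 14675 genes. The 9 libraries of polyA-selected RNA came from 9 mice with separate animal numbers: 2 female and 2 male GHRH-KO mice, which lack growth hormone releasing hormone through disruption of *Ghrh*, and 3 female and 2 male wild-type (WT) littermates. All were on the same mixed C57BL6 and 129SV background and had free access to the same chow. The disruption is in the whole animal and is not limited to brown fat. The study calls the mice adult, and their age itself is not given in the sources used here. Abundance was measured as FPKM, read pairs corrected for the length of the transcript and the size of the library, and numbers after a group's name, as in KO male 1, name a library.

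Lipoprotein lipase splits the triglycerides of chylomicrons and very low density lipoproteins in the capillaries of fat and muscle, and the fatty acids released there enter the tissue. The enzyme is made by the adipocyte and matured with the help of LMF1, and GPIHBP1 carries it across the capillary endothelium and holds it on the vessel wall, while ANGPTL4 inactivates it. CD36 and FATP1 (the product of *Slc27a1*) take fatty acids into cells, FABP4 binds them in the cytoplasm, and the VLDL receptor binds triglyceride-rich particles. Brown fat is known for drawing heavily on this route as fuel for heat production.

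The libraries differed in cell type markers. Summed FPKM ran from 380558 to 443569, but FPKM is already corrected for library size, so these sums do not show it. Relative depth, read from the steps of low values, ran from 0.916 to 1.14. It was searched only within a set range around WT female 1, so a larger difference in depth would not have been seen. KO male 1 stood apart, with Spearman correlations of 0.924 to 0.934 to the other libraries against 0.958 to 0.991 among these. Its 8 lymphocyte markers summed to 201 FPKM against 1.93 to 4.26 in the other libraries, and its 8 macrophage markers to 199 FPKM against 25.8 to 95.9. The 12 skeletal muscle markers summed to 2780 to 12715 FPKM in the KO libraries and to 449 to 2404 in the WT libraries, without overlap. *Ghrh*, the targeted gene, did not show a loss of transcript under the genotype labels. It was above 0 in every library labelled KO, from 0.233 to 0.846 FPKM, and at 0 in every library labelled WT. The two-sided exact permutation p was 0.00794, which no split of these libraries can undercut. Whether this comes from transcript left by the targeted allele or from the labels was not tested. *Ghr*, the growth hormone receptor, was at 46.8 ± 5.08 FPKM (SD, n = 4) in libraries labelled KO and 94.2 ± 36.6 (SD, n = 5) in those labelled WT (exact permutation p = 0.0159). *Igf1*, a target of growth hormone, was at 1.33 ± 0.784 and 4.80 ± 2.66 FPKM (exact permutation p = 0.0317). KO and WT below mean the libraries so labelled, and every direction rests on those labels. More than 1 sequencer model is named with no library assigned to either, and the study's column names carry a further number, of unstated meaning, shared within each sex and genotype and different between them. A batch that follows these groups cannot be told apart from sex and genotype.

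The 8 genes lie on 6 chromosomes (GRCm38, the build of the files, with GENCODE M21 positions), and no other annotated gene overlaps any of them. *Lpl* is at chr8:68880491-68907448, on the same chromosome as *Slc27a1* at chr8:71568882-71587302. *Lmf1* at chr17:25579085-25662826 shares a chromosome with *Angptl4* at chr17:33773750-33781830. *Gpihbp1* is at chr15:75596628-75599481, *Cd36* at chr5:17781690-17888801, *Fabp4* at chr3:10204088-10208576 and *Vldlr* at chr19:27216484-27254231. All are protein coding. Of all 50-base stretches of their transcripts, the length of a read, 1.40% in *Lpl*, 0.298% in *Lmf1* and 1.43% in *Slc27a1* also occur in transcripts of another gene, and 0 in the other members.

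RefSeq's promoter table (GRCm38.p6) held 4 of the 8 genes, *Lmf1*, *Cd36*, *Slc27a1* and *Vldlr*. They are shown because they are the members that the table held. *Lmf1* and *Cd36* were lower in KO males, and *Slc27a1* and *Vldlr* differed in opposite directions in the sexes. The stretch before the first listed transcription start is printed 5′ to 3′ on the gene's strand, *Lmf1* only up to its first GENCODE exon. Capitals mark matches, on either strand, to the TATA box TATAAA, the box CCAAT, the GC box GGGCGG or the hexamer AGGTCA, which PPAR, RXR and other nuclear receptors bind.
Lmf1, chr17:25578924-25579084, + strand: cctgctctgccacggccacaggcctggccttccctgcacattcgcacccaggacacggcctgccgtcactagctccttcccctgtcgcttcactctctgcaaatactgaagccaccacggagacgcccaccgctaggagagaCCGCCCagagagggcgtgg
Cd36, chr5:17835897-17836146, − strand: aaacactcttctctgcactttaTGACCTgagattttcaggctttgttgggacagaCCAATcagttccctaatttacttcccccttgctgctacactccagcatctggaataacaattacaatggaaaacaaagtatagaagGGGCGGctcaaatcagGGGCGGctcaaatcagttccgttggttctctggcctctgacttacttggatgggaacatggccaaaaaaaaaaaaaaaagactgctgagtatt
Slc27a1, chr8:71568621-71568870, + strand: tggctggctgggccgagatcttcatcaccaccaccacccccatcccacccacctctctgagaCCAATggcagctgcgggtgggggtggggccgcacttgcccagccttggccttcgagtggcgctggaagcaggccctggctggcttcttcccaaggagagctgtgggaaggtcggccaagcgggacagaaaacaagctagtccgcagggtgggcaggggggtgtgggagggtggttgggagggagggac
Vldlr, chr19:27216234-27216483, + strand: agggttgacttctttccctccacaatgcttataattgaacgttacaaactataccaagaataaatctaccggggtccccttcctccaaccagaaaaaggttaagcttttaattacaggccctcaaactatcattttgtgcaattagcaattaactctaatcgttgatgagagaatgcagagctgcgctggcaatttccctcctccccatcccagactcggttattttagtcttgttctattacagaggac

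*Cd36* held the GC box 2 times, inside a repeated stretch, the hexamer 1 time, on the opposite strand, and the CCAAT box 1 time. *Slc27a1* held the CCAAT box 1 time and *Lmf1* held the GC box 1 time, on the opposite strand. *Vldlr* held none of these letters in this window. The 4 motifs do not overlap one another in these windows. Among all 32851 windows of 250 bases in the table, the TATA box occurred in 12.4%, the CCAAT box in 33.8%, the GC box in 32.7% and the hexamer in 14.0%. GC content was 43.2% in *Cd36*, 66.4% in *Slc27a1* and 41.6% in *Vldlr*, against a median of 52.4%. A stretch of genome just after the *Cd36* start listed by RefSeq occurred in no GENCODE M21 transcript of the gene. The positions of the starts themselves were not compared. *Slc27a1* and *Vldlr* have further starts in the table.

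The comparison of interest was KO with WT, over both sexes and within each. Over both sexes, *Lpl* and *Gpihbp1* fell in KO, to 0.719-fold and 0.695-fold, and the other 6 genes did not pass. Within each sex the values lay as follows. In males 7 of the 8 genes were lower in every KO library than in every WT library, all but *Angptl4*, whereas in females this held for *Lmf1* and *Angptl4* alone. *Slc27a1* and *Vldlr* were higher in every KO female than in every WT female. Among all 14675 genes, 28.7% were lower without overlap in KO males, 26.6% in KO females, and 2.58% were higher in KO females and lower in KO males, as 2 of the 8 genes were. Every KO library was below every WT library for 6.04% of genes and for 0 of the 8.

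**Figure D1:**
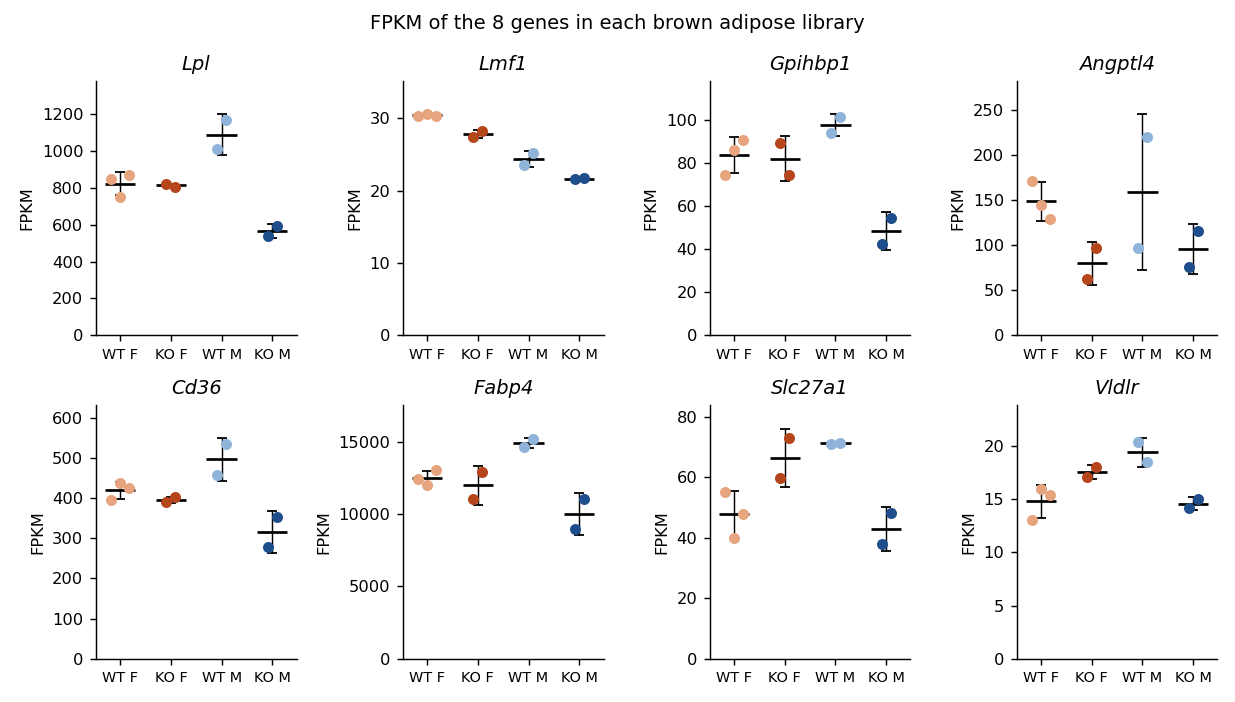
FPKM (linear axis from 0) of the 8 genes in each library, by group (WT F, n = 3; KO F, KO M and WT M, n = 2 each); points are libraries, the line is the group mean and the bars are SD. KO males lie below WT males in every panel but that of *Angptl4*, while KO and WT females overlap for *Lpl*, *Gpihbp1*, *Cd36* and *Fabp4*.

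*Lpl*, the enzyme itself, was among the most abundant transcripts, 67th by mean FPKM and 0.200% of all FPKM. It was at 821 and 808 FPKM in KO females, 541 and 593 in KO males, 848, 751 and 869 in WT females and 1010.4 and 1168 in WT males. The females of both genotypes overlapped, all WT males lay above them and all KO males below. Over both sexes *Lpl* fell by 0.48 on the log2 scale in KO (SE 0.08, limma adjusted p = 0.0347), where 2.17% of all genes passed as lower and 3.6% in either direction. In males the log2 difference was -0.94 (SE 0.12, adjusted p = 0.0625), a fold of 0.522, and in females -0.01 (SE 0.11, adjusted p = 0.979), with a 95% interval of -0.26 to 0.24. Without KO male 1 the difference in males was -0.87 (SE 0.14, adjusted p = 0.115). The call over both sexes was lost on leaving out any 1 of 7 libraries (all but KO male 2 and WT male 1), with adjusted p-values up to 0.135. With genotype labels exchanged among all 9 libraries, the exact permutation p was 0.0714 (two-sided).

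*Gpihbp1*, the endothelial carrier and anchor of the enzyme, was also lowest in KO males. It was at 89.4 and 74.6 FPKM in KO females, 42.2 and 54.4 in KO males, 74.3, 85.7 and 90.7 in WT females and 93.9 and 101 in WT males. Only KO males stood clear below all other libraries. It fell by 0.53 over both sexes (SE 0.11, limma adjusted p = 0.0451, exact permutation p = 0.0635). The log2 difference was -1.02 in males (SE 0.16, adjusted p = 0.0676), a fold of 0.492, and -0.03 in females (SE 0.14, adjusted p = 0.961). Without KO male 1 it was -0.84 in males (SE 0.16, adjusted p = 0.130). The call over both sexes was lost on leaving out any 1 of 8 libraries (all but KO male 2), with adjusted p-values up to 0.135.

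*Lmf1*, which encodes a factor of the endoplasmic reticulum needed for folding of the lipase, had the smallest difference of the 8 genes in males, with little spread between libraries. It was at 27.5 and 28.2 FPKM in KO females against 30.3, 30.6 and 30.4 in WT females, and at 21.6 and 21.7 in KO males against 23.6 and 25.2 in WT males. KO lay below WT in both sexes, and the male values of both genotypes lay below the female ones. Exchanging labels within each sex gave an exact permutation p of 0.0167 (two-sided), the smallest that the 60 ways allow, against 0.222 with labels exchanged among all libraries. In limma, which shares the spread of other genes at that level, the log2 difference was -0.15 (SE 0.06, adjusted p = 0.181), and male minus female was -0.34 (SE 0.06, adjusted p = 0.136). The sex contrast gave 2 genes in all, 0.0136%, and 0 of the 8.

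*Angptl4*, the inhibitor, was the member whose males overlapped. It was at 62.7 and 96.5 FPKM in KO females against 172, 145 and 130 in WT females, and at 76.2 and 115 in KO males against 97.4 and 220 in WT males. KO females lay below all WT females, while the WT males were 2.26-fold apart. The log2 difference was -0.92 in females (SE 0.36, adjusted p = 0.352), -0.64 in males (SE 0.39, adjusted p = 0.489) and -0.78 over both (SE 0.27, adjusted p = 0.153, exact permutation p = 0.0317). Leaving out WT male 1 took the difference over both sexes past the threshold, at -1.08 (adjusted p = 0.0369), and leaving out WT male 2 gave -0.49 (adjusted p = 0.334). In males the same omissions gave -1.23 (adjusted p = 0.134) and -0.05 (adjusted p = 0.969), so the size of the male difference rested on which WT male was kept.

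*Cd36*, the fatty acid translocase, was at 391 and 401 FPKM in KO females, 279 and 353 in KO males, 396, 437 and 424 in WT females and 459 and 534 in WT males. Both KO males were below all other libraries and both WT males above them. The log2 difference was -0.66 in males (SE 0.13, limma adjusted p = 0.0841), -0.08 in females (SE 0.12, adjusted p = 0.839) and -0.37 over both (SE 0.09, adjusted p = 0.0668, exact permutation p = 0.0238). Leaving out KO male 2 took it past the threshold over both sexes, at -0.45 (limma adjusted p = 0.0294), and leaving out KO male 1 gave -0.28 (adjusted p = 0.0886), with -0.49 in males (adjusted p = 0.176).

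*Fabp4*, the fatty acid binding protein of adipocytes, ranked 2nd of all genes with 3.00% of all FPKM. It was at 11023 and 12931 FPKM in KO females, 8974 and 11042 in KO males, 12412, 12007 and 13037 in WT females and 14637 and 15156 in WT males. WT males were the highest libraries, and KO male 2 was close to KO female 1. The log2 difference was -0.58 in males (SE 0.17, adjusted p = 0.136), -0.06 in females (SE 0.15, adjusted p = 0.902) and -0.32 over both (SE 0.11, adjusted p = 0.157, exact permutation p = 0.0476).

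*Slc27a1*, which encodes the fatty acid transport protein FATP1, had opposite signs in the sexes. It was at 59.6 and 73.1 FPKM in KO females against 55.3, 39.9 and 48.0 in WT females, but at 37.9 and 48.2 in KO males against 71.0 and 71.4 in WT males. The log2 difference was 0.48 in females (SE 0.17, adjusted p = 0.302), -0.74 in males (SE 0.18, adjusted p = 0.107) and -0.13 over both (SE 0.12, adjusted p = 0.649). *Vldlr*, the very low density lipoprotein receptor, was at 17.1 and 18.0 FPKM in KO females against 13.0, 15.9 and 15.4 in WT females, and at 14.1 and 15.0 in KO males against 20.3 and 18.4 in WT males. Its log2 difference was 0.25 in females (SE 0.11, adjusted p = 0.407), -0.41 in males (SE 0.12, adjusted p = 0.151) and -0.08 over both (SE 0.08, adjusted p = 0.689). For both genes the groups of each sex did not overlap, and averaging over the sexes left values near 0.

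**Figure D2:**
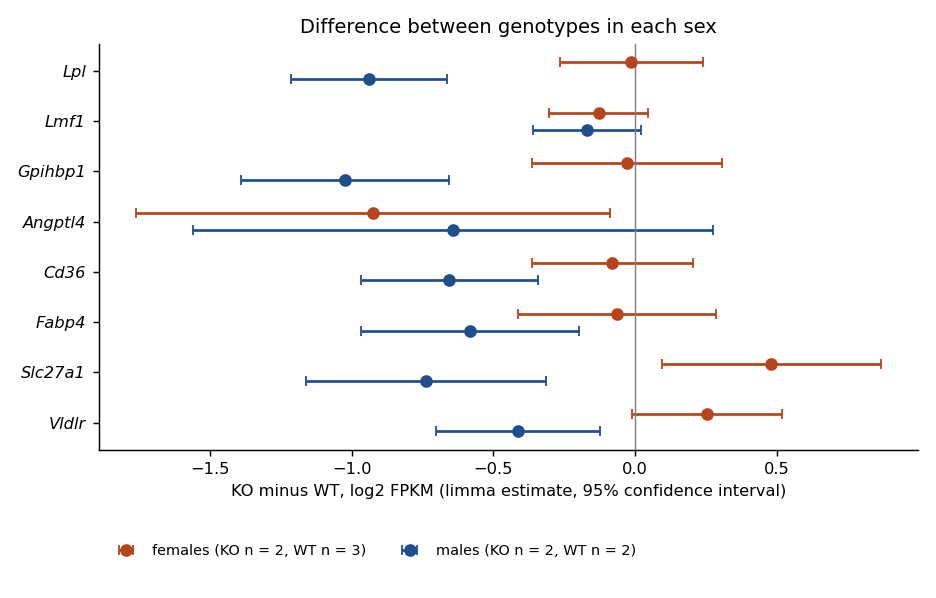
KO minus WT on the log2 FPKM scale (horizontal axis) for each gene (vertical axis) in females and males; points are limma estimates and bars 95% confidence intervals. The male interval excludes 0 for all genes but *Lmf1* and *Angptl4*, while the female interval excludes 0 for *Angptl4*, below, and *Slc27a1*, above; the intervals are not adjusted for the number of genes.

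Within each sex the tests had few libraries. No exact test within males can go below 0.333 (2 against 2, two-sided), and none within females below 0.1. At an adjusted p under 0.05 limma passed 0 of the 8 genes in males, where 0.0136% of all genes passed, and 0 in females, where 0.0204% did. At an unadjusted p under 0.05, 6 of the 8 were lower in KO males against 11.7% of all genes, and 1, *Angptl4*, in KO females against 7.73%. Without KO male 1, 6 of the 8 were again lower in males at that threshold, against 14.5% of all genes, and KO male 2 alone was below both WT males for the same 7 genes, against 60.8% of all genes. The median log2 difference of the 8 genes in males was -0.65 (8 of 8 negative) against -0.08 for all genes tested, and in females -0.05 (6 of 8 negative) against -0.07. Median centring of the libraries moved the median of all genes in females to 0.04 and left 2 of the 8 negative, *Lmf1* and *Angptl4*, so the female signs of *Lpl*, *Gpihbp1*, *Cd36* and *Fabp4* depend on the scaling. In males all 8 stayed negative with a median of -0.64. Leaving out KO male 1 gave a male median of -0.46 for the 8 genes and -0.22 for all.

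The difference between the sexes was then tested as the genotype-by-sex interaction, the KO minus WT difference in males less that in females. It was -0.93 for *Lpl* (SE 0.16), -0.99 for *Gpihbp1* (SE 0.21), -1.22 for *Slc27a1* (SE 0.25), -0.67 for *Vldlr* (SE 0.17) and -0.57 for *Cd36* (SE 0.18). These 5 of the 8 had an unadjusted limma p under 0.05 and a negative sign, against 5.03% of all genes. *Fabp4* was at -0.52 (SE 0.22) and *Lmf1* at -0.04 (SE 0.11), and *Angptl4* alone was positive, at 0.28 (SE 0.53). After adjustment none of the 8 passed (lowest adjusted p = 0.614), as did 0% of all genes. The median was -0.62 for the 8 genes and -0.01 for all genes tested, and -0.72 and -0.12 with median centring.

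The ordinary linear model of the study's methods was fitted as well, with genotype, sex and their interaction on log FPKM and a threshold of 0.01 on the unadjusted p. For a negative interaction it passed 4 of the 8 genes, *Lpl*, *Slc27a1*, *Vldlr* and *Gpihbp1*, against 1.44% of all genes. Without KO male 1 this came to 1 of the 8, as it did without either KO female, either WT male or WT female 3, and without WT female 2 it came to 2. Its genotype term for females passed *Lmf1* alone, against 3.43% of all genes, and passed no member on leaving out any 1 of 7 libraries, all but the WT males. With males as the reference sex the genotype term passed 5 of the 8, *Lpl*, *Gpihbp1*, *Lmf1*, *Cd36* and *Fabp4*, against 5.29% of all genes. Benjamini-Hochberg adjustment over all genes left none, the lowest adjusted p among the members being 0.142 in males and 0.568 for the interaction.

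Cell type marker lists were read beside these genes, and few of their members passed at an adjusted p under 0.05. The capillary is the site of GPIHBP1, and the 12 endothelial markers summed to 164 to 243 FPKM in KO libraries and 194 to 251 in WT libraries. All 12 had a negative log2 difference over both sexes (median -0.34), as did 62.5% of all genes tested, and 1, *Ptprb*, passed as lower (-0.50, limma adjusted p = 0.0385). In males their median was -0.46. At an unadjusted limma p under 0.05, 6 of the 12 were lower over both sexes, against 14.2% of all genes. In males 6 were lower at that threshold, against 11.7%, and in both comparisons 0 were higher. The 8 shared adipocyte markers summed to 3390 to 5171 FPKM in KO and 5113 to 8415 in WT libraries, with a median of -0.39 over both sexes and -0.58 in males. 1 of them, *Cidec*, a lipid droplet protein, passed as lower (-0.44, adjusted p = 0.0456). Without adjustment 5 of the 8 were lower over both sexes and 5 in males at a limma p under 0.05, and 0 were higher. The 10 brown adipocyte markers summed to 5519 to 7327 and 5358 to 7002 FPKM, and none passed in either direction, *Ucp1*, the uncoupling protein that defines brown fat, being at 2504 ± 350 FPKM in KO (SD, n = 4) and 1820 ± 384 in WT (SD, n = 5). Of these 10, 7 had a negative log2 difference over both sexes (median -0.18) and 8 in males (median -0.37), and the median in females was 0.10. Without adjustment 3 were lower and 2 higher over both sexes, and 4 lower and 1 higher in males. In bulk tissue, fewer cells of a type and less RNA per cell cannot be told apart.

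**Figure D3:**
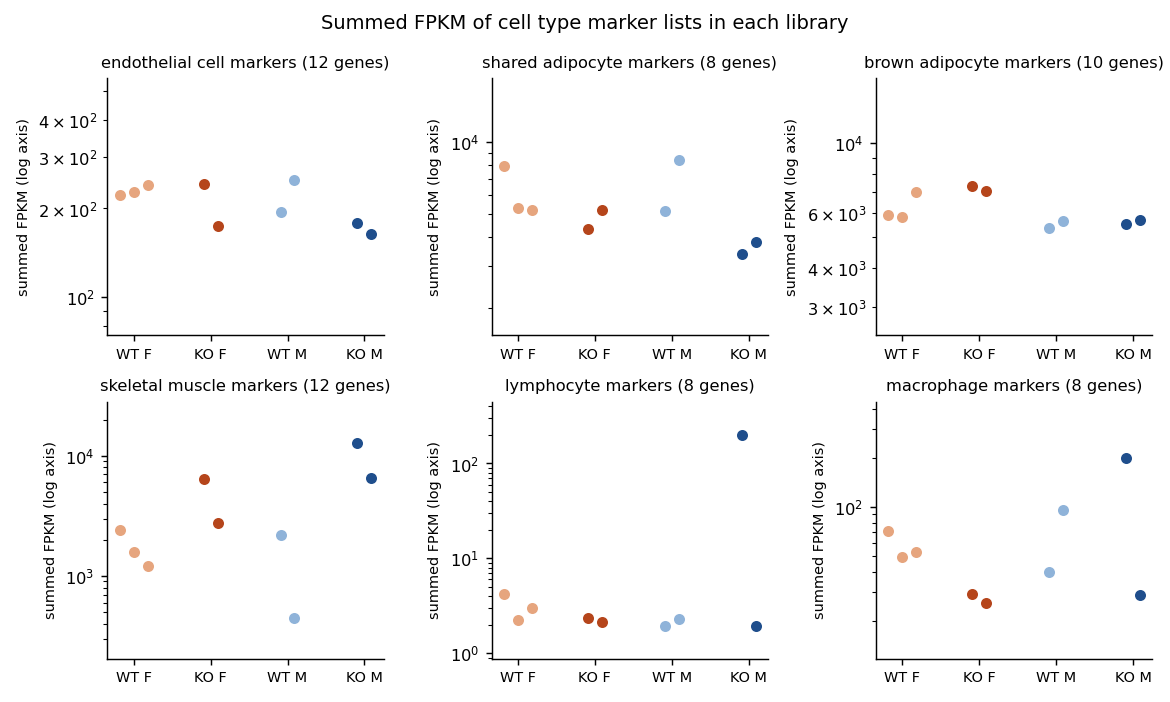
Summed FPKM (log axis) of 6 marker lists in each library by group; each point is a library. KO male 1 alone is high in lymphocyte markers, at 201 FPKM, all 4 KO libraries lie above all 5 WT libraries in skeletal muscle markers, and endothelial and adipocyte sums overlap between genotypes.

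Set against the mean log2 level of a marker list, the differences in males became smaller in size for 7 of the 8 genes, all but *Lmf1*. Relative to the endothelial markers, *Gpihbp1* was -0.61 in KO against WT males and 0.18 in females, and *Lpl* -0.52 and 0.19. Relative to the shared adipocyte markers, *Lpl* was -0.26 in males and 0.26 in females, *Cd36* 0.02 and 0.20, *Fabp4* 0.10 and 0.21, and *Slc27a1* -0.06 and 0.76. *Lpl* and *Gpihbp1* kept every KO male below every WT male against each of the 3 lists tried, endothelial, shared adipocyte and brown adipocyte. Against the brown list so did *Cd36*, *Fabp4* and *Slc27a1*. For *Lpl* against the shared adipocyte markers the margin was narrow, 0.876 in KO male 1 and 0.892 in WT male 2. *Slc27a1* was also negative in males against all 3 lists, at -0.32, -0.06 and -0.29. The share of all genes without overlap after such subtraction was not computed, and was 28.7% before it. *Lmf1* turned to higher in KO males against all 3 lists, at 0.25 to 0.51. These values have no test, and the lists share libraries with the genes.

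**Figure D4:**
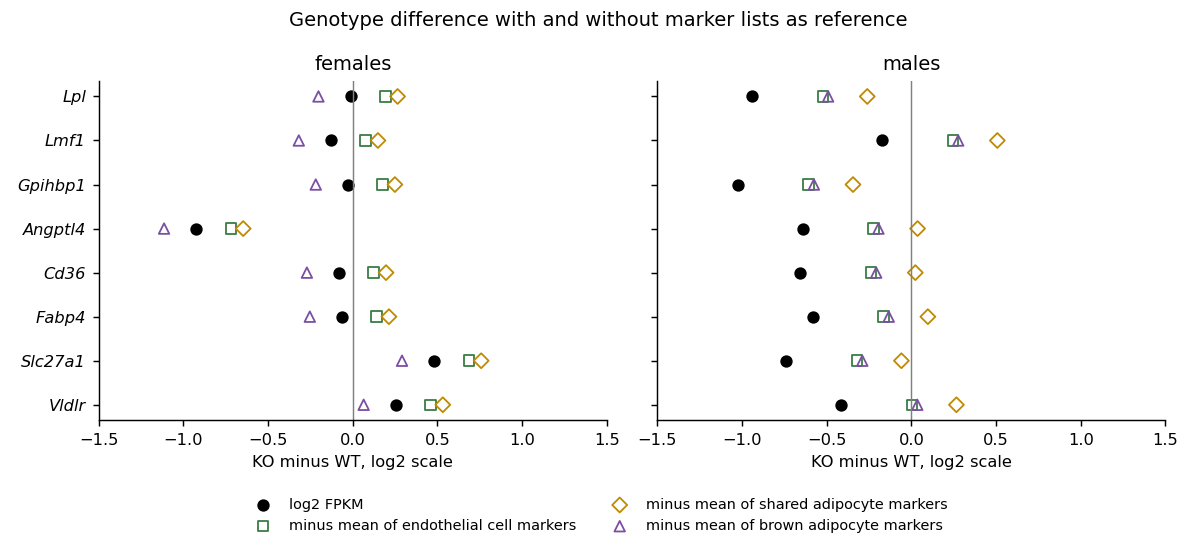
KO minus WT difference (log2 scale, horizontal axis) of each gene in females (left) and males (right), as measured and after subtracting the mean log2 FPKM of a marker list. In males *Lpl*, *Gpihbp1* and *Slc27a1* stay below 0 against every list, while *Cd36* and *Fabp4* come to 0.02 and 0.10 against the shared adipocyte markers.

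The skeletal muscle markers summed above every other list of non-adipose cells in each library but WT male 2, where red blood cell markers came to 971 FPKM and muscle markers to 449, and muscle fibres also use *Lpl* and *Cd36* to take up fatty acids. The muscle markers took 0.666% to 2.96% of all FPKM in KO libraries and 0.109% to 0.580% in WT libraries, highest in KO male 1 and lowest in WT male 2. Of the 12, *Acta1*, *Mylpf* and *Myh1* passed as higher (limma adjusted p = 0.0426, 0.0499 and 0.0436), as did 210 of all 14675 genes. All 12 were higher over both sexes at an unadjusted limma p under 0.05, against 5.99% of all genes. Their median log2 difference was 2.28 over both sexes and 3.16 in males. The lymphocyte markers of KO male 1 were 0.0468% of its FPKM. White adipocyte markers, of which 4 of 8 could be tested, summed to 3.12 to 6.31 FPKM in KO and 8.77 to 54.3 in WT, and *Lep*, the leptin gene, passed as lower (-3.21, adjusted p = 0.0426). Red blood cell markers summed to 246 to 500 and 356 to 971 FPKM. Of the macrophage and red blood cell markers 1 each passed as lower, *Cd163* and *Hbb-bs*, and of the lymphocyte markers 0 passed. *Hbb-bs* was at 0.00356 to 4.70 FPKM in KO and 9.67 to 32.3 in WT. That call is uncertain, since near-identical globin copies can split its reads, which was not tested. The part of these lists, and of the single library KO male 1, in the differences of the 8 genes was not tested.

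Genes around the pathway were read from 5 lists of 90 genes, 77 of them tested. Over both sexes 9 passed at an adjusted p under 0.05, 6 lower and 3 higher in KO, or 11.7% against 3.6% of all genes. The median log2 difference of the 77 was -0.17 against -0.07. The lists were written with earlier results of these data known, so these shares are descriptions and were not tested against each other. Among genes of fatty acid uptake, binding and activation 4 of the 21 tested fell, *Cav1*, *Cav2*, *Sdpr* and *Ehd2*, and 1 rose. *Cav1*, caveolin 1, a coat protein of the membrane pits called caveolae, was at 247, 230, 194 and 218 FPKM in the KO libraries and 280, 316, 296, 290 and 340 in the WT libraries, which did not overlap (-0.47, SE 0.08, adjusted p = 0.0347). *Cav2*, caveolin 2, was at 22.9 to 29.7 and 37.5 to 54.3 FPKM (-0.79, adjusted p = 0.0235), and *Sdpr*, which encodes cavin 2, at 33.9 to 41.8 and 52.0 to 72.9 FPKM (-0.58, adjusted p = 0.0347). The fourth, *Ehd2*, an ATPase found at caveolae and named after its values were seen, was at 54.6 to 72.1 and 84.7 to 119 FPKM. *Ptrf*, which encodes cavin 1, also named after its values were seen, had a difference of -0.44 that did not pass (adjusted p = 0.0567). Without KO male 1 *Cav1* and *Cav2* still passed (adjusted p = 0.0491 and 0.0345), and *Sdpr* and *Ehd2* did not (0.0510 and 0.0636). *Cav2* passed in 10 and *Cav1* in 7 of 17 alternatives, and the count over the 77 genes ran from 0 to 12 on leaving out single libraries, being 0 without KO female 1, KO female 2, WT female 1, WT female 2 or WT male 2.

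The gene of this list that rose was *Got2*, mitochondrial aspartate aminotransferase, also described at the plasma membrane as a fatty acid binding protein (0.80, adjusted p = 0.0453; 0.0688 without KO male 1). Its FPKM ran from 28.5 to 55.0 in KO libraries and from 17.9 to 29.5 in WT libraries, so the groups overlapped. *Got2* passed in 6 of 17 alternatives. *Fabp3* and *Dbi*, the most abundant genes of this list, were at 779 ± 310 and 2122 ± 343 FPKM in KO (SD, n = 4) and 939 ± 392 and 2143 ± 295 in WT (SD, n = 5) and did not pass.

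Among 15 tested partners of the lipase and enzymes of lipolysis, 1 fell, *Pcsk5*, a proprotein convertase, from 1.57 to 2.40 FPKM in WT to 0.859 to 1.45 in KO (-0.83, adjusted p = 0.0380). It passed in 5 of 17 alternatives. *Apoc1* and *Pnpla2*, adipose triglyceride lipase, were the most abundant, with log2 differences of -0.13 and -0.16 that did not pass. In males these were -0.42 and -0.38, and in females 0.16 and 0.07. Of the 15, 14 were negative in males and 9 in females, against 60.1% and 60.2% of all genes. Among 17 lipoprotein receptors, *Scarb1*, the HDL receptor, fell (-0.90, adjusted p = 0.0403), from 27.5 to 48.6 FPKM in WT to 16.8 to 20.9 in KO, without overlap. *Scarb1* passed in 7 of 17 alternatives. *Sorl1*, a sorting receptor, rose (0.96, adjusted p = 0.0438), at 1.55 to 3.53 FPKM in WT and 3.17 to 5.73 in KO, so the groups overlapped. It passed in 4 of 17 alternatives. *Stab2*, a scavenger receptor, also rose, from 0.00480 to 0.0177 FPKM in WT to 0.0517 to 1.67 in KO, the highest value being that of KO male 1. Its log2 difference was 4.25, and 3.31 without KO male 1. *Stab2* passed in 4 of the 16 alternatives that held it. *Sort1* and *Lrp10* had differences of -0.31 and -0.12 and did not pass. In males these were -0.56 and -0.18, and in females -0.06 and -0.05.

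Regulators did not pass in either of the last lists. Of 15 PPAR and LXR factors and their partners, 0 passed, and their median was -0.02. Within the sexes the median was 0.13 in females and -0.12 in males. The interaction was negative for 12 of the 15, as it was for 51.3% of all genes. *Pparg*, the master factor of adipocytes that acts on *Lpl*, *Cd36* and *Fabp4*, was at 122 ± 19.1 FPKM in KO (SD, n = 4) and 118 ± 5.19 in WT (SD, n = 5). By sex its means were 138 in KO and 120 in WT females, and 106 in KO and 115 in WT males. *Cebpa* and *Cebpb* had differences of -0.27 and -0.36. Of 9 genes of vascular endothelial growth factor signalling and endothelial identity, 0 passed and all 9 were negative over both sexes (median -0.30), with *Vegfa* at -0.26 and *Vegfb* at -0.17. The median of these 9 was -0.46 in males and 0.003 in females. At an unadjusted p under 0.05 the count was 1 higher and 1 lower in the former list and 3 lower in the latter, where 14.2% of all genes were lower and 5.99% higher.

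**Figure D5:**
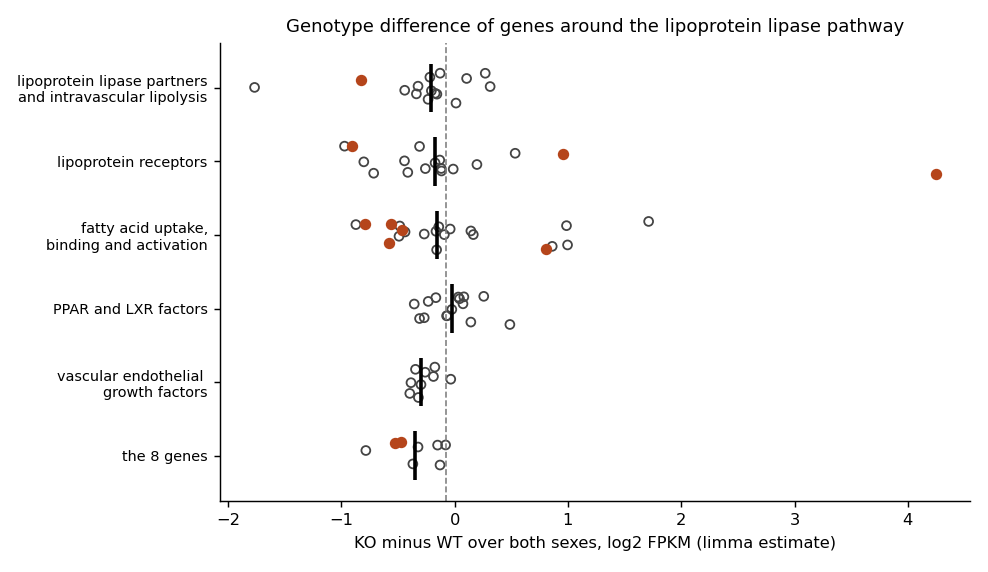
KO minus WT over both sexes (log2 FPKM, limma estimate) for the tested genes of 5 lists and the 8 genes; filled points passed at an adjusted p under 0.05, bars are medians and the dashed line is the median of all genes tested, -0.07. Most list medians lie left of the line, and the point near 4 is *Stab2*, whose level is low.

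Over the 9 libraries the genes of the pathway followed each other unevenly. Pearson's r of log2 FPKM was 0.92 between *Lpl* and *Cd36*, 0.92 between *Lpl* and *Fabp4*, 0.91 between *Lpl* and *Gpihbp1* and 0.94 between *Cd36* and *Fabp4*. It was 0.39 between *Lpl* and *Lmf1* and 0.49 between *Lpl* and *Angptl4*, and 0.09 and 0.34 without KO male 1, which left *Lpl* at 0.86 to *Gpihbp1*. Among 10877 tested genes with a mean of at least 1 FPKM, those most like *Lpl* were *Fbxw8*, *Dctn3* and *Trappc9* (r = 0.98, 0.97 and 0.96). Those most like *Gpihbp1* were *Ablim3*, *Robo4* and *Pigl* (0.98, 0.97 and 0.97), of which *Robo4* is an endothelial receptor. *Angptl4* was nearest *Ccdc80*, *Fgf10* and *Tdrp* (0.97, 0.97 and 0.95), *Cd36* nearest *Heatr5b*, *Aco1* and *Fbxw8* (0.97, 0.97 and 0.96), and *Fabp4* nearest *Tmem198b*, *Mpp2* and *Entpd5* (0.96, 0.96 and 0.95). *Lmf1* was nearest *Cdip1*, *Hspa2* and *Smco4* (0.98, 0.96 and 0.96), *Slc27a1* nearest *Mocs1*, *Tst* and *Cenpb* (0.94, 0.93 and 0.93), and *Vldlr* nearest *Dag1*, *Tmem246* and *C330007P06Rik* (0.96, 0.94 and 0.92). Without that library these genes had r between 0.90 and 0.98 to their members. The points share libraries and group differences, so the correlations are descriptions only.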

How the data were processed

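Each of the 9 libraries has a table of FPKM per gene symbol deposited by the authors. Per the labels and methods, polyA-selected RNA was read as paired ends of 50 bases, with bcl2fastq 1.8.4, TopHat2 2.0.11 on mm10 (GRCm38) and Bowtie named; depth in fragments is unknown, and only relative depth was estimated. The methods removed genes with an FPKM of 0 in any sample, and the same filter was used, leaving 14675 of 24356 symbols. Tests ran on log2 FPKM with pseudocount 0 and no further scaling. limma 3.58.1 (R 4.3.3) fitted a mean per group with a mean-variance trend and Benjamini-Hochberg adjustment over all tested genes at 0.05. KO minus WT was averaged over the sexes or taken within each. The linear model of the methods used a p under 0.01. Exact permutation tests used all ways to place 4 KO labels among 9 libraries, or the 60 that keep the sexes.

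The members and lists were chosen with earlier results of these data known. Text names the members, *Ghrh*, *Igf1* and *Ghr*, up to 4 genes per pathway list with an adjusted p under 0.05 and the 2 of highest mean FPKM, and 3 genes most like each member. Marker genes and *Pparg* are named beside them after their values were seen. Alternatives were pseudocounts of 0.1 and 1, a mean of at least 1 FPKM, any gene above 0 in at least 1 library with 0.1 FPKM added, median centring, quantile normalization, no trend, array weights and leaving out each library. The comparison of KO male 2 alone with WT males was added after seeing the data. p-values measure the spread between single mice. The fit was tested on simulated data. The labels state no pairing and no litters, so no pairing could be used, and serum metabolomics are not analysed here. Other tools were matplotlib 3.10.9, scipy 1.17.1, numpy 2.4.6, pandas 2.3.3 and Python 3.11.15.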

Additional observations from a re-analysis of the deposited data

Results flagged for a closer look

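The KO minus WT difference departed between males and females for 4 of the 8 genes, by the interaction of the ordinary linear model at an unadjusted p under 0.01. The interaction on the log2 scale was -0.93 for *Lpl*, -0.99 for *Gpihbp1*, -1.22 for *Slc27a1* and -0.67 for *Vldlr*. None passed with adjustment over all genes, by the linear model or limma, and without KO male 1, the library with 201 FPKM of lymphocyte markers, 1 of the 8 genes passed the linear model. The sign was negative in all 17 alternatives of the limma fit for each of these genes. In 16 sets of libraries (each gene in the 4 KO and the 5 WT libraries), 0 had a library far from the others, where chance flags about 1 in 20. Each set pooled the sexes, so a library far only from its own sex could be missed.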

How the results depend on the processing

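Which genes passed depended on the settings, while the direction over both sexes and in males was negative for all 8 genes in every alternative. Of 2 members lower over both sexes, 0 passed with the wider filter (18933 genes above 0 in at least 1 library, with 0.1 FPKM added), median centring, quantile normalization, no trend or array weights, and 0 to 3 on leaving out libraries. *Lpl* passed in 5 of 17 alternatives (adjusted p 0.0211 to 0.231) and *Gpihbp1* in 4 of 17 (0.0273 to 0.222), both negative in all 17. Counts over all genes went from 529 to 170 with that filter and pseudocount together, 222 with median centring, 34 with no trend, 55 with array weights, and 8 to 1020 on leaving out libraries. The 9 pathway genes became 1, 3, 0 and 1 under the same 4 settings, and 0 to 12 on leaving out libraries. Leaving out libraries gave 0 to 5 members in males (5 without KO male 2, 1 without WT male 1), 0 to 4 for the interaction and 0 to 1 for sex (both highest without KO male 2). In the linear model, the 1 member for females became 0 with median centring or quantile normalization, 5 with male as reference, and 0 to 1 on leaving out libraries; the 4 for the interaction became 1, 1, and 1 to 5. Exact permutation placed 3 members under 0.05, 0 with median centring, 1 within sexes and 0 to 2 on leaving out libraries. The interaction turned sign for *Lmf1* (0.014 with quantile normalization, and from -0.090 to 0.0046 on leaving out libraries, above 0 without WT male 2) and *Angptl4* (from -0.31 without WT male 1 to 0.87, below 0 also without KO female 1 or KO male 2). The causes were not tested. No paired analysis was possible because the libraries share no replicate numbers in the labels. Depth in fragments is unknown, so no counting error is given.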
